A study of Mus musculus with 4 samples.

Results

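The genes described here are the gap junction genes Gja1, Gja4 and Gjb5 and the related channel gene Panx1, looked up by symbol among the array spots that were assigned to 1 gene. They were 4 of the 10225 genes with such a spot, and they were carried by 5 of the 28704 spots of each array. Gja1, Gja4 and Gjb5 had 1 spot each and Panx1 had 2. The arrays were hybridised with spinal cord RNA of adult SJL/J females, either control mice or mice with AT-EAE, which is adoptive-transfer experimental autoimmune encephalomyelitis, a T cell driven model of multiple sclerosis. Each group had 2 arrays with 2 colour channels, every channel was given a different extract of that group, and each extract pooled the cords of 2 mice. The arrays are called C12 and C34 (control) and E12 and E34 (AT-EAE), after the numbers of the extracts they held. The sources used here state neither how the control mice were handled nor how long after transfer the AT-EAE cords were taken. A pool averages its mice, so differences between single mice were not seen.

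A value is the log ratio of the 2 channels of 1 array. It was read as a log2 ratio, although the labels name neither the base nor the numerator. Because both channels held extracts of 1 group, a ratio measures how far 2 pools of that group differed, together with technical noise, and it does not tell whether AT-EAE cord had more or less of a transcript than control cord. The sign depends on which extract was in which channel. Ratios are given below minus the median of the genes on that array, and also in standard deviations (SDs) of the array, where the SD was estimated over genes from the median absolute deviation.

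Connexins assemble into channels that dock between neighbouring cells as gap junctions, through which ions and small metabolites pass. Gja1 encodes connexin43, the main gap junction protein of astrocytes, which links these cells into a network and is also made by meningeal and vascular cells. Gja4 encodes connexin37, found mostly in the vessel wall, and Gjb5 encodes connexin31.1, known from skin and other epithelia. Panx1 encodes pannexin 1, a membrane channel that releases ATP and does not usually form gap junctions.

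Spots with a value numbered 21139 on C12, 18565 on C34, 15635 on E12 and 10788 on E34, or 73.6%, 64.7%, 54.5% and 37.6% of all spots. The SD over genes was 0.18 on C12, 0.23 on C34, 0.17 on E12 and 0.33 on E34. Of the genes of resident cells with a spot, 10 of 12 astrocyte, 6 of 7 oligodendrocyte and 5 of 8 neuron genes had values on all 4 arrays, among them the astrocyte enzyme gene Glul, the myelin gene Mbp and the neurofilament gene Nefl. With 2 arrays per group, precision was limited by their number.

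The first question was which of these genes had a value in which cords. Gja1 had a value on all 4 arrays, as did 35.3% of all spots. The first Panx1 spot also had a value on all 4. The other Panx1 spot had a value on no array, like 23.8% of all spots, so each Panx1 ratio below rests on 1 spot. Gjb5 had a value on every array other than E34, a pattern shared by 15.6% of spots. Gja4 had a value on C12 alone, as did 7.84% of spots. Member spots with a value thus numbered 4, 3, 3 and 2 of 5 on C12, C34, E12 and E34, which is 80.0%, 60.0%, 60.0% and 40.0%. The shares over all spots were near these on each array. The mean number was 1 lower in AT-EAE, and the ranges of the groups touched at 3 (2-sided exact permutation p = 0.667 over the 6 splits of the 4 arrays). With 2 arrays tied at 3, no split of these counts can give a lower p, so the test cannot decide. Since the authors' filter on spots is not given, a missing value cannot be read as absence of the transcript.

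Of the 19 other connexin and pannexin genes looked up, 1 had a spot assigned to it alone. This was Gjc1, the gene of connexin45, and it had no value on any array. The others had no such spot and were not analysed here.

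The second question was how far the members differed between the extracts of an array. Gja1 differed little between control extracts and far more between AT-EAE extracts. Its deposited ratio was 0.08 on C12, -0.13 on C34, -0.55 on E12 and 0.95 on E34. Minus the array median these were 0.09, -0.14, -0.56 and 1.02. If the base was 2, the extracts of an array differed in Gja1 by 1.06-fold and 1.10-fold in control, and by 1.47-fold and 2.03-fold in AT-EAE. Both control ratios were close to the array median, both AT-EAE ratios were far from it, and the AT-EAE arrays went in opposite directions.

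**Figure D1:**
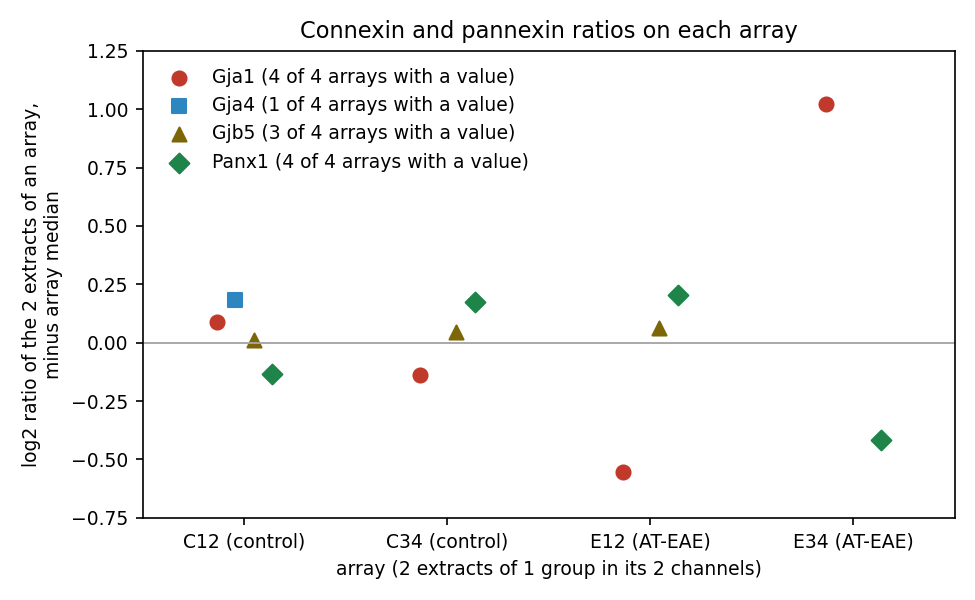
Log2 ratio of the 2 extracts of an array, minus the array median, for each member spot with a value (y axis) on the 4 arrays (x axis). Each point is 1 spot on 1 array, without error bars since each was measured once. Gja1 lies at 0.09 and -0.14 on the control arrays and at -0.56 and 1.02 on the AT-EAE arrays, while Panx1 stays between -0.42 and 0.20.

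Against all genes of the same array, Gja1 was unremarkable in control and near the edge of the distribution in AT-EAE. On C12 it lay 0.502 SDs from the median, and 60.6% of 8818 genes had a larger absolute ratio. On C34 it lay -0.605 SDs from the median, with 54.5% of 8187 genes larger. On E12 it lay -3.20 SDs from the median, and 189 of 7398 genes, 2.55%, had a larger absolute ratio. On E34 it lay 3.07 SDs from the median, and 53 of 5616 genes, 0.944%, had a larger one. There, 26 genes had a higher ratio than Gja1. An array gives 1 value of Gja1, so these ranks are a description of 4 arrays and have no test.

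At a threshold of 2 SDs in either direction, Gja1 was past it on both AT-EAE arrays and on no control array. Over all genes, 8.41% were past it on C12, 7.87% on C34, 9.21% on E12 and 6.46% on E34. Genes read from 1 spot spread more widely than means over several, and Gja1 is such a gene. Among genes with 1 spot with a value, 3.44% of 4593 on E12 and 1.13% of 3978 on E34 had a larger absolute ratio than Gja1. A second yardstick was the SD between spots of the same gene, which was 0.24 on E12 and 0.36 on E34. The plain SD over genes was 0.23 and 0.36 there, so spots of the same gene differed about as much as genes did. How much of a ratio read from 1 spot was spot noise was not tested. Gja1 lay -2.29 and 2.83 such SDs from the array median on these arrays, and 0.371 and -0.492 on C12 and C34.

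**Figure D2:**
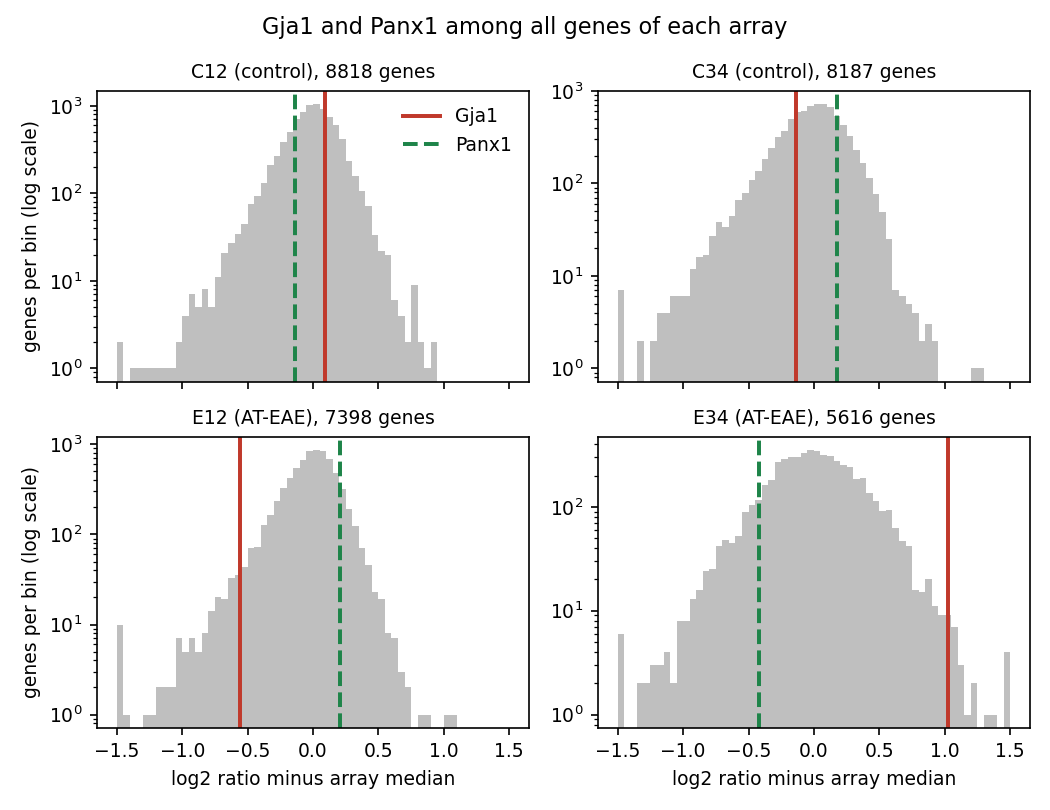
Number of genes (y axis, log scale) by log2 ratio minus the array median (x axis) on each array, with Gja1 as a solid and Panx1 as a dashed line; genes beyond 1.5 in size are drawn in the outermost bins. Gja1 falls in the middle of both control distributions, in the lower tail on E12 at -0.56 and in the upper tail on E34 at 1.02.

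Both AT-EAE ratios of Gja1 were larger in size than both control ratios, so the groups did not overlap. This was also the case for 19.4% of the 5429 genes with values on all 4 arrays, while 11.1% had both AT-EAE ratios smaller in size. The mean absolute ratio of Gja1 was 0.79 ± 0.33 (SD, n = 2 arrays) in AT-EAE and 0.11 ± 0.03 (SD, n = 2 arrays) in control. The difference of 0.68 could not be told from the spread between arrays by a test of this size (2-sided exact permutation p = 0.333, the lowest possible here). Without E34 the difference was 0.44. Over all genes the median difference was 0.03, and 15 of the 5429 genes had a larger one than Gja1, which is 0.276%. E34 had the widest spread of the arrays. With each ratio first divided by the SD of its array, the difference for Gja1 was 2.58 SDs, and 16 genes, 0.295%, exceeded it.

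The counts that follow were drawn up after the values of Gja1 were seen, so they describe where it lay and support nothing further. Of the 5429 genes, 61 were at least 2 SDs from the median on both AT-EAE arrays, which is 1.12%, and 10 of these had opposite signs, 0.184%. Gja1 was 1 of 9 genes, 0.166%, that were at least 2 SDs below the median on E12 and at least 2 SDs above it on E34. It was also 1 of the 4 genes among them, 0.0737% of all, that stayed within 1 SD on both control arrays. Of the 9 genes, 5 were read from 1 spot and 4 from several. Since nothing in the labels orders the extracts of a group, the signs say only that Gja1 lay to one side of the array median on E12 and to the other on E34.

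**Figure D3:**
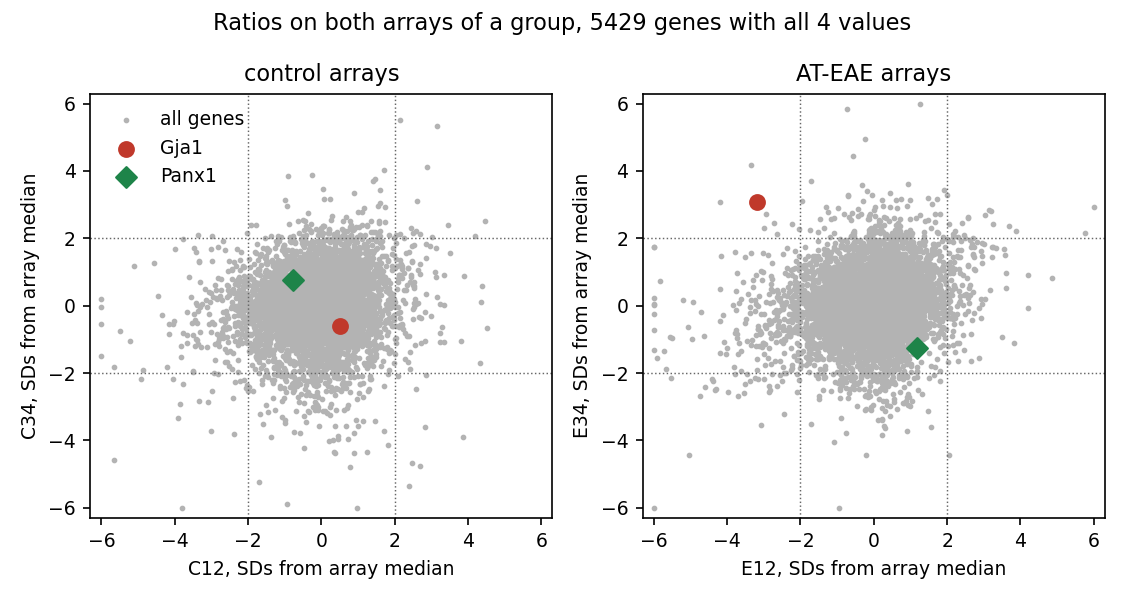
Distance from the array median in SDs on C12 (x axis) and C34 (y axis) at the left, and on E12 (x axis) and E34 (y axis) at the right, for genes with values on all 4 arrays; each grey point is 1 gene, dotted lines mark 2 SDs, and values beyond 6 SDs are drawn at 6. Gja1 sits inside the dotted lines in control and in the upper left corner in AT-EAE, at -3.20 and 3.07 SDs.

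The third question was whether Gja1 had a ratio shared by the arrays, as a constant difference between channels would give. In limma, fitted over the 10133 spots with values on all 4 arrays, the mean Gja1 ratio was 0.10 ± 0.21 (SE; 95% interval -0.37 to 0.58; limma adjusted p = 0.853 by Benjamini-Hochberg), and 3 spots were called, 0.0296%. Gja1 was not among them. The AT-EAE minus control difference of its ratio was 0.26 ± 0.42 (SE; 95% interval -0.70 to 1.21; limma adjusted p = 0.997). For this difference limma called 0 of 10133 spots, 0%, and 348 of the 10133 had an unadjusted p under 0.05. For the shared ratio, 1287 of the 10133 had one. The AT-EAE minus control difference turns with the order of the extracts and is no change in level. It was also set by the AT-EAE arrays, being -0.53 without E34 and 1.05 without E12. Such fits leave 1 AT-EAE array, which is then assumed to vary like the control arrays.

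Panx1 was within 2 SDs of the median on all 4 arrays. Its deposited ratios were -0.14 and 0.18 on C12 and C34, and 0.21 and -0.49 on E12 and E34. Minus the array median they were -0.13, 0.17, 0.20 and -0.42, and in SDs they were -0.765, 0.758, 1.18 and -1.25. Larger absolute ratios were held by 44.7%, 45.2%, 26.5% and 21.4% of genes. The AT-EAE ratios were larger in size than the control ratios here too, but Panx1 stayed in the bulk of the distribution on each array. Its mean absolute ratio was 0.31 ± 0.15 (SD, n = 2 arrays) in AT-EAE and 0.15 ± 0.03 (SD, n = 2 arrays) in control. The difference of 0.16 had a 2-sided exact permutation p of 0.333, and 20.8% of genes had a larger one. In limma its mean ratio over the arrays was -0.04 ± 0.13 (SE; adjusted p = 0.903).

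On every array Panx1 lay on the other side of the median from Gja1. This was noticed after the values were seen. An opposite sign on all 4 arrays was found for 484 of 5428 genes, 8.92%, and the same sign on all 4 for 399 genes, 7.35%, so such a mirror image is not unusual on these arrays.

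Gjb5 hardly differed between extracts wherever it was measured. Its deposited ratios were 0.004 on C12, 0.05 on C34 and 0.07 on E12, which lay 0.0566, 0.198 and 0.352 SDs from the median. In the same order, 95.4%, 84.6% and 72.1% of genes had larger absolute ratios. Gja4, with its lone value of 0.17 on C12, lay 1.03 SDs from the median there, with 31.9% of genes larger. Neither gene was measured on E34, the array of the highest Gja1 ratio.

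Genes that act with connexin43 were taken as a list of 33 binding, trafficking and kinase genes, of which 25 had a spot. They include the scaffold gene Tjp1, the cadherin gene Cdh2 and the clathrin adaptor gene Ap2m1. On E12, 4 of 24 measured genes were at least 2 SDs below the median, against 6.7% of all genes, and 0 were above, against 2.5%. The 4, Akt1, Ctnna1, Hgs and Eps15, were at -0.47, -0.43, -0.38 and -0.35. On E34, 1 of 24 was at least 2 SDs above, against 3.04% of all genes, and 0 were below, against 3.42%. This was Ctnnb1, the gene of beta-catenin, at 0.89. On the control array C12, 1 of 25 was at least 2 SDs above, against 3.08%, and 1 was below, against 5.33%. These were Akt1 at 0.38 and Hgs at -0.39, both also past 2 SDs on E12. On C34, 0 of 24 were above, against 2.13%, and 0 were below, against 5.74%. The list medians were -0.01 and 0.01 on the control arrays, -0.09 on E12 and 0.11 on E34 (0.04 as deposited), where the median over all genes is 0 by construction. Members went both ways, with 13 genes below and 11 above the array median on E12, and 9 below and 15 above on E34. No gene of the list was past 2 SDs on both AT-EAE arrays with the signs of Gja1, a pattern held by 0.166% of the 5429 genes with all 4 values. The kinase gene Gsk3b, read from 7 spots, was at -0.17, -0.19, 0.03 and 0.17 on C12, C34, E12 and E34. In the same order, Cdh2 was at -0.04, 0.02, -0.21 and -0.15. The motor gene Kif5b was at -0.14, -0.07, 0.03 and 0.64.

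Connexin hemichannels and pannexin 1 release ATP, which is sensed by purinergic receptors and feeds calcium waves through IP3 receptors. Of 28 genes of this signalling, 12 had a spot, and 9, 7, 6 and 5 were measured on C12, C34, E12 and E34. On each array 0 of them were past 2 SDs in either direction, against 8.41%, 7.87%, 9.21% and 6.46% of all genes in the same order. Among so few genes, 0 is near these shares. The receptor gene P2rx4 was lowest on E12 at -0.34, and P2ry14 lowest on E34 at -0.47. The IP3 receptor gene Itpr2 was at 0.16 on C12, -0.20 on C34, 0.03 on E12 and -0.38 on E34. Itpr3 was at -0.04 on C12, -0.03 on C34, 0.09 on E12 and 0.23 on E34.

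In bulk cord, fewer cells of a type and less RNA per cell cannot be told apart, so the markers of the cells that make connexin43 were read beside it. None of the other measured astrocyte genes lay as far from the median as Gja1 on E12 or E34. On E12 the 11 measured astrocyte genes ran from -0.25 (Clu) to 0.28 (Dbi), with a median of 0.03. On E34 the 10 measured ran from -0.51 (Clu) to 0.41 (Sparcl1), with a median of 0.10 (0.02 as deposited). On both arrays 0 of them were past 2 SDs, against 9.21% of all genes on E12 and 6.46% on E34, while Gja1 was past 3. Among so few genes, 0 is near these shares. In control, 1 of 12 was at least 2 SDs above on C12, against 3.08% of all genes, and 0 were below, against 5.33%. On C34, 4 of 11 were above, against 2.13%, and 1 was below, against 5.74%. Astrocyte genes were past 3 SDs in control, where Gja1 was not. Sparcl1 lay at 3.24 SDs on C12, and Fabp7 at 3.70 and Slc1a2 at -3.97 SDs on C34, each read from 1 spot. The glutamine synthetase gene Glul, also 1 of the 4 above on C34, was at 0.05 and 0.61 on C12 and C34 and 0.03 and -0.21 on E12 and E34. The glycolytic gene Aldoc was at 0.07 on C12, 0.07 on C34, -0.15 on E12 and 0.13 on E34. Ndrg2 was at 0.28 on C12, 0.57 on C34, 0.11 on E12 and 0.38 on E34. The list holds 20 genes, of which 12 had a spot, and the defining marker genes Gfap and Aqp4 had none that was assigned to them alone.

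Of the 7 meningeal and fibroblast genes with values on all 4 arrays, 1 shared the AT-EAE pattern of Gja1, against 0.166% of 5429 genes. That pattern was defined from the values of Gja1, so the count is a description. On E34, 4 of the 7 genes lay below the median. On E12, 3 of 10 measured genes were at least 2 SDs below the median, against 6.7% of all genes, with the collagen gene Col3a1 at -0.73, the proteoglycan gene Dcn at -0.92 and Fmod at -0.38. The list median was -0.25. The list was also below the median on the control arrays, at -0.11 on C12 with 8 of 10 genes below and at -0.13 on C34 with 7 of 10 below, and 1 gene was at least 2 SDs below on each, against 5.33% and 5.74% of all genes. On E34, 1 of 7 was above 2 SDs, against 3.04% of all genes, again Col3a1, at 1.02, and the list median was -0.15 (-0.22 as deposited). The lowest there was Lum at -0.51, which on E12 was the highest of the list at 0.11. Col3a1, a mean of 4 spots, was at -0.25 and -0.09 on C12 and C34, and it was the 1 gene of all the lists that shared the AT-EAE pattern of Gja1. The related collagen gene Col1a2 was at -0.02, -0.06, -0.14 and 0.35 on the 4 arrays in the same order, and the growth factor gene Igf2 was at -0.32, -0.16, -0.15 and -0.30. Dcn and Fmod had no value on E34. The part of meningeal tissue in the Gja1 ratios was not tested.

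The macrophage and myelin lists had medians below the array median on E12 and near it on E34, where single genes went both ways. On E12, 5 of 13 microglia and macrophage genes and 3 of 6 oligodendrocyte and myelin genes were at least 2 SDs below the median, against 6.7% of all genes. The list medians were -0.24 and -0.29. The protease gene Ctsd was at -0.71, the Fc receptor gene Fcgr3 at -0.56 and the myelin enzyme gene Cnp at -0.56, the size of Gja1. On E34 these lists had medians of -0.04 and 0.04 (-0.12 and -0.03 as deposited), with 0 of 11 and 0 of 6 genes at least 2 SDs below, against 3.42% of all genes. Of the macrophage genes 1 of 11, Fcgr1, was above, against 3.04%. Fcgr1 was above 2 SDs on all 4 arrays. In control, the myelin list had a median of 0.18 on C12, with 5 of 7 genes above the array median. On C34 its median was -0.09, with 6 of 6 genes below. The macrophage list had medians of -0.00054 on C12 and 0.07 on C34. On C12, 2 of its 12 measured genes were at least 2 SDs above, against 3.08% of all genes, and 1 was below, against 5.33%. On C34, 1 of 13 was above, against 2.13%, and 0 were below, against 5.74%. Endothelial and vessel wall genes had medians of -0.01 and 0.19 on E12 and E34 (0.00073 and 0.12 as deposited). Neuron genes had medians of -0.04 and -0.08 (-0.03 and -0.16 as deposited). In either list 0 were past 2 SDs, against 9.21% of all genes on E12 and 6.46% on E34. On C34, 2 of 8 endothelial and 2 of 7 neuron genes were at least 2 SDs below, against 5.74%. On C12, 1 of 8 neuron genes was at least 2 SDs above, against 3.08%. The part of these cell types in the Gja1 ratios was not tested.

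**Figure D4:**
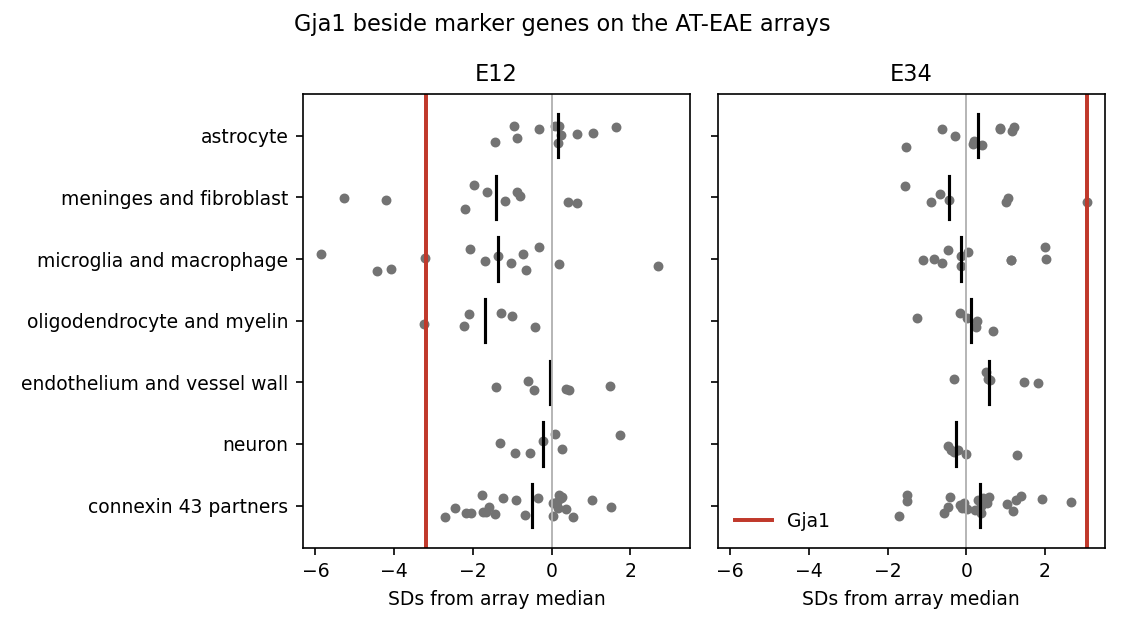
Distance from the array median in SDs (x axis) of marker genes by list (rows) on E12 (left) and E34 (right). Each point is 1 gene, spread vertically for legibility, short black lines are list medians and the long line is Gja1, which lies at -3.20 and 3.07 SDs, outside all astrocyte points on both arrays.

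The genes whose ratios on the 4 arrays lay closest to those of Gja1 were Vta1, Neo1, Dag1, Ankrd44 and Bzw1, in that order. Closeness was the Euclidean distance over the 4 arrays in SDs, among 3554 genes with values on all 4 arrays and at least 2 spots. Vta1, a gene of multivesicular body sorting, was by far the nearest at 0.480 SDs, against a median distance of 4.69 over the genes compared. Gja1 itself lay 4.50 SDs from the array medians, so a gene at the median of every array would be that far away. The ratios of Vta1 were 0.07 and -0.17 on C12 and C34, and -0.51 and 0.91 on E12 and E34. The receptor gene Neo1 followed at a distance of 1.51 SDs, with -0.08, -0.15, -0.39 and 0.80 on the same arrays. Dag1, the dystroglycan gene, was at 0.10, -0.09, -0.30 and 0.75, a distance of 1.69 SDs. Ankrd44 and Bzw1 were 1.76 and 2.12 SDs away. Of these, Vta1 and Neo1 were also among the 9 genes past 2 SDs on both AT-EAE arrays with the signs of Gja1. This likeness rests on 4 arrays and is a description.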

How the data were processed

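The authors deposited 1 value per spot and array, read here as log2 of 1 normalized channel over the other, since the values are signed and centred near 0. Per the labels, green and red normalized signals were compared and AT-EAE over control ratios averaged across slides. Those signals were not analysed here. The background correction, spot filter, normalization and software remain not given in the sources used here. Spots were named from the platform's table, and symbols were updated by gene identifier to the GRCm38.p6 table for 18267 of 18511 spots of 1 gene. Ratios of a gene's measured spots were averaged, and the array median over genes was subtracted. Nothing in the labels says whether mice were pooled from separate experiments, so p-values measure only the spread between arrays. Sizes of ratios were compared over arrays with an exact permutation test (2-sided), and spots by limma 3.58.1 in R 4.3.3, tested on simulated data, with Benjamini-Hochberg adjustment at 0.05. Python 3.11.15 was used elsewhere. Alternatives were the summary over spots, centring, spread, gene background, spot filter, replicate block and leaving out each array. Named genes were the members, the 3 genes of a list with most spots and values on all 4 arrays, the 5 genes closest to Gja1, and, chosen after their values were seen, list genes that were extreme or past 2 SDs. Members and lists were chosen with earlier results of these data known.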

Additional observations from a re-analysis of the deposited data

How the results depend on the processing

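The standing of Gja1 kept its direction on each array under all 8 alternatives for summary, centring, spread and background. Since Gja1 has 1 spot, these could only move the array centre or rescale the spread, and none measured Gja1 again. It lay at -3.42 to -2.43 SDs on E12, 2.80 to 3.43 on E34, 0.402 to 0.600 on C12 and -0.836 to -0.502 on C34. Backgrounds of all spots and of genes with 1 spot were chosen after seeing the data. The excess of Gja1 ratio size in AT-EAE ranged from 0.44 to 0.91 when each array was left out. The limma count of spots with a ratio shared by all arrays was 1 with 1 row per gene and 5 with values on at least 3 arrays, and 5 to 1021 when each array was left out. Spots with an AT-EAE minus control difference numbered 1 with 1 row per gene, 2 with values on at least 3 arrays and 0 to 478 when each array was left out. The highest counts came without E12, and the cause was not tested. There the shared Gja1 ratio was 0.50, and without E34 it was -0.29. The Gja1 difference was likewise 1.05 and -0.53. A fit without 1 array has 1 array left in that group, which is assumed to vary like the other group. Its counts and estimates are thus a description, and it cannot show that a ratio was shared. The number of Gja1 spots with a value differed by 0 between groups.

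With the replicate block, 1 spot was called for the AT-EAE minus control difference and 6 for the shared ratio, and the Gja1 difference was not called (limma adjusted p = 1.000). Arrays of the same number share only a number, and their deviations from the group means had a correlation of -0.33 over 10133 spots. A crossed replicate block, added after seeing the data, called 0 spots for the difference and 4 for the shared ratio. Signal over background was not analysed here, and a gene of 1 spot gives no error within an array.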
